A study of Homo sapiens with 6 samples.

Results

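The genes described here encode enzymes that clear methylglyoxal, formaldehyde and other reactive aldehydes, and related proteins for which such an activity is not settled. They were taken by symbol from the deposited expression table: the glyoxalases GLO1 and HAGH, the glyoxalase-domain protein GLOD4, the DJ-1-like proteins PARK7 and C21orf33, the formaldehyde enzymes ESD and ADH5, and the aldehyde dehydrogenases ALDH2, ALDH3A2 and ALDH9A1. All 10 symbols had a row among the 35473 gene rows, and all 10 passed the minimum mean of 1 TPM, which 13470 rows passed. TPM is a gene's share of the transcripts of its library, scaled for transcript length. Messenger RNA was sequenced from IMR32, an established human neuroblastoma cell line, after 24 h of culture with 5 µM of the small molecule CBR-470-1 or with its solvent DMSO, which served as the vehicle control. Each group had 3 independent biological replicates, and the design has no genetic change and no other agent. All material comes from this single line, so its genotype is shared by both groups.

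Methylglyoxal is a reactive by-product of the triose phosphates of glycolysis. It is cleared by joining to glutathione: GLO1 turns the adduct into lactoylglutathione, and HAGH releases D-lactate and gives the glutathione back. Formaldehyde takes a parallel glutathione route through ADH5 and ESD, while aldehyde dehydrogenases oxidise other aldehydes to acids with NAD+ or NADP+. CBR-470-1 is known as an inhibitor of the glycolytic kinase PGK1, which lies downstream of the triose phosphates, and the title of the series names glycolysis, the NRF2 pathway and a metabolite-induced protein modification. The comparison of CBR-470-1 with DMSO therefore bears on whether the transcripts of the clearing enzymes differed under the compound.

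The column totals of the libraries were alike, and NRF2 targets were higher in the treated ones. Column totals ran from 972453 to 973696 TPM. Since TPM is a share of a library, these totals do not measure depth, and no sequencing depth is recorded. NQO1, GCLM and TXNRD1, standard NRF2 targets, rose by 3.58, 0.77 and 0.63 on the log2(TPM + 1) scale (limma adjusted p = 2.67e-05, 0.0105 and 0.00234). Of 11 adrenergic neuroblastoma markers, 11 were at or above 1 TPM, with MYCN highest at 1139 TPM on average, and 2 of them, DBH and CHGA, were called as lower. Their summed level was 3025 to 3298 TPM in DMSO and 2916 to 2968 TPM in CBR-470-1, and its part in the results below was not tested. The 11 epithelial, blood, endothelial and hepatocyte markers were all under 1 TPM, with KRT5, CD3E and HBB at 0 in all 6 libraries, and 4 of 6 mesenchymal markers were above it, with sums of 26.4 to 28.2 TPM in DMSO and 25.2 to 27.7 TPM in CBR-470-1. In bulk RNA, fewer cells of a type and less RNA per cell cannot be told apart.

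Of the 10 genes, 1 was called between the groups: C21orf33 fell, and none rose. The reads of C21orf33 may be shared with a gene copy that is near-identical in part, described with its values. Over all tested genes 1.97% were called (limma, adjusted p under 0.05), 0.839% as lower and 1.13% as higher, or 152 higher and 113 lower genes. With median centring of the libraries the split was 124 higher and 237 lower. The other 9 genes did not pass, with ratios of the CBR-470-1 mean to the DMSO mean between 0.904 and 1.14. DMSO and CBR-470-1 values stayed apart without overlap in 5 of the 10, GLO1, ADH5 and ALDH2 being higher in CBR-470-1 and HAGH and C21orf33 lower, against 30.2% of all tested genes (17.7% higher and 12.5% lower). The median log2 fold change of the 10 was 0.02, beside 0.03 for all tested genes. An unadjusted p under 0.05 was reached by 3 of the 10 and by 23.5% of all tested genes.

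**Figure D1:**
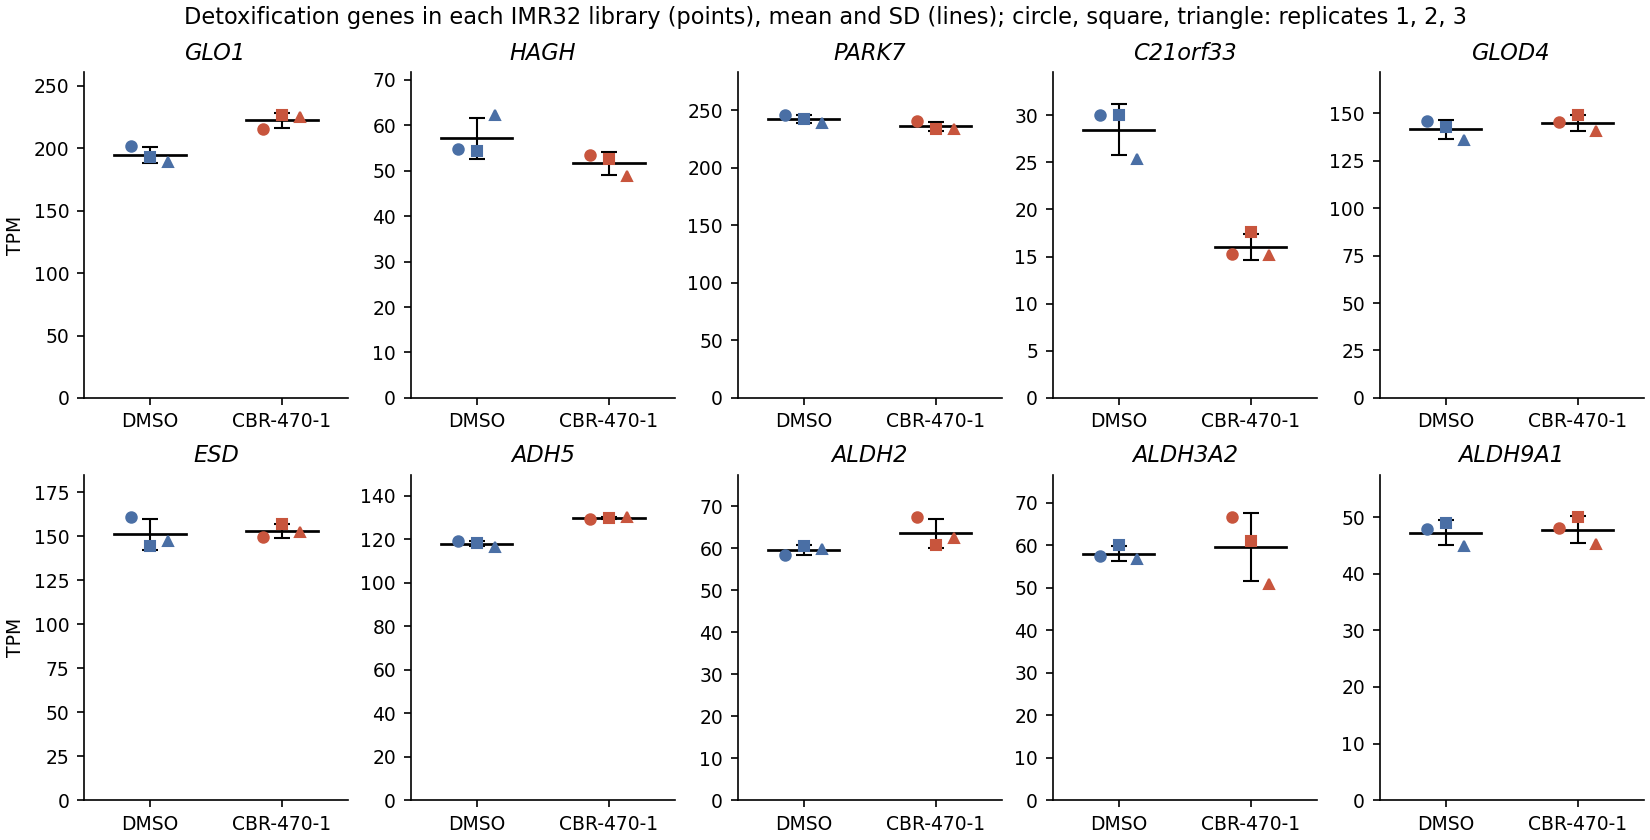
TPM of each of the 10 genes in the 3 DMSO (blue) and 3 CBR-470-1 (red) libraries; each panel has its own linear axis from 0, points are libraries and lines give the mean and SD. C21orf33 stands at 25.3 to 30.05 TPM in DMSO and at 15.1 to 17.6 TPM in CBR-470-1, while the other panels show ratios of the group means between 0.904 and 1.14.

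In DMSO the 10 transcripts spanned 28.5 to 242 TPM, in the order PARK7, GLO1, ESD, GLOD4, ADH5, ALDH2, ALDH3A2, HAGH, ALDH9A1 and C21orf33. The same order of means held in CBR-470-1. On the TPM scale, which is per length, the DMSO ranges of ESD and GLOD4 overlapped, as did those of ALDH2, ALDH3A2 and HAGH as neighbours, so these neighbours did not differ beyond their spread over the DMSO libraries. Within each library ESD was nevertheless above GLOD4, in 6 of 6, while ALDH2 was above ALDH3A2, and ALDH3A2 above HAGH, in 5 of 6. PARK7, GLO1, GLOD4, ADH5, HAGH and ALDH9A1 each lay above the next gene in the order in 6 of 6 libraries, and their DMSO ranges did not overlap with it. In CBR-470-1 the ranges of HAGH and ALDH9A1 overlapped as well, while those of ESD and GLOD4 did not. Summed over the 10 genes, the level was 1098 ± 22.9 TPM without the compound and 1125 ± 17.6 TPM with it (SD, n = 3 each).

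The genes are spread over 8 chromosomes. On GRCh38 with GENCODE 29 models, GLO1 (ENSG00000124767.6) spans 38675925 to 38703141 on chromosome 6, HAGH (ENSG00000063854.12) 1795620 to 1827194 on chromosome 16, and PARK7 (ENSG00000116288.12) 7954291 to 7985505 on chromosome 1. ADH5 (ENSG00000197894.10) spans 99070978 to 99088801 on chromosome 4 and ESD (ENSG00000139684.13) 46771256 to 46797232 on chromosome 13. GLOD4 (ENSG00000167699.13) lies at 757097 to 783390 and ALDH3A2 (ENSG00000072210.18) at 19648136 to 19677598, both on chromosome 17. ALDH2 (ENSG00000111275.12) spans 111766887 to 111817529 on chromosome 12 and ALDH9A1 (ENSG00000143149.12) 165662216 to 165698863 on chromosome 1. The values are one per gene, over its transcripts, and carry no information on exons or UTRs. GLO1 and ESD transcripts shared 0% of their stretches of 31 bases with other genes, so their rows are the least open to shared reads among the 10. The GC content of the longest transcript ran from 34.0% in ESD to 59.7% in HAGH.

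Since NRF2 acts through the antioxidant response element, the 250 bases before the annotated start of each gene were searched on both strands for the core of that element, the letters TGACNNNGC. A promoter was found in RefSeq (GRCh38.p14) for 9 of the 10 genes, all but ALDH2, with C21orf33 under the name GATD3. The motif stood in 2 of the 11 windows of these 9 genes, those of PARK7 and GLOD4, and in 10.9% of all 35116 windows searched. The windows of those 2 genes and of GLO1 and C21orf33, the uncalled gene with the largest difference and the called gene, are printed here 5′ to 3′ on the strand of the gene, with a match in capitals.
PARK7, chr1:7961461-7961710, plus strand: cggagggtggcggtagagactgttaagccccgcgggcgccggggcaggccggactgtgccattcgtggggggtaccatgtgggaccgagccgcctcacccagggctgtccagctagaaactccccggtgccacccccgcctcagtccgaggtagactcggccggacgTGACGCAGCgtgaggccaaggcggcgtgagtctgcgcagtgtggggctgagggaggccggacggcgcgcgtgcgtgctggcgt
GLOD4, chr17:782281-782530, minus strand: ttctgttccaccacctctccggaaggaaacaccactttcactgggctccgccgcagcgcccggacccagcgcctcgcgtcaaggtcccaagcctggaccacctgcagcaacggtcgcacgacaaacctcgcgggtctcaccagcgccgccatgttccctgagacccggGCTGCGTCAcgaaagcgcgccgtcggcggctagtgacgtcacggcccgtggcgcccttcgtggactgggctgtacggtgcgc
GLO1, chr6:38703146-38703395, minus strand: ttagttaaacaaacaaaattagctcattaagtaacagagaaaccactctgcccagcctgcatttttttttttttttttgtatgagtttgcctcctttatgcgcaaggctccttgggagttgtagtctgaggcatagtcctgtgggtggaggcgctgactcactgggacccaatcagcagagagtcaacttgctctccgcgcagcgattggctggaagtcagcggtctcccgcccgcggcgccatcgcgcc
C21orf33, chr21:44133433-44133682, plus strand: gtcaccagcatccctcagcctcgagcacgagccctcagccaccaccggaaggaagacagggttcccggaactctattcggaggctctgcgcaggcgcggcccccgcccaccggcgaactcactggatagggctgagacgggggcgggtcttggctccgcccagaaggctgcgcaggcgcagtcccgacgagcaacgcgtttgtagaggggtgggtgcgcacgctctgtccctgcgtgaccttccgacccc
The match in PARK7 lies at bases -83 to -75 from the RefSeq start and reads along the gene. That in GLOD4 lies at bases -82 to -74 and reads on the other strand. The PARK7 and GLOD4 windows lie inside the GENCODE spans given above for these genes, not upstream of them. Neither gene was called. The windows of GLO1 and C21orf33 hold no match, which says only that these letters are not in them. Of the NRF2 targets used as a check, GCLM and TXNRD1 have 1 match each in this window and NQO1 has 0.

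Neither glyoxalase was called, GLO1 being higher and HAGH lower in mean under CBR-470-1. GLO1, the first enzyme of methylglyoxal clearance, had 202, 193 and 189 TPM in the DMSO libraries and 216, 227 and 225 TPM in the CBR-470-1 libraries. Every treated library was above every control, with means of 195 ± 6.62 and 222 ± 6.06 TPM, but the difference did not pass (log2 fold change 0.19, SE 0.0418, limma adjusted p = 0.0651). The 95% interval of the log2 fold change was 0.09 to 0.29. With genes of at least 5 TPM only, a smaller number of tests, the adjusted p was 0.0494 at the same fold change. It lay between 0.0494 and 0.186 over all alternatives. The log2 fold change was 0.14 with a correction for GC content and length and 0.15 with median centring (limma adjusted p = 0.0632 and 0.0793).

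HAGH, the hydrolase that completes the glyoxalase cycle, had 54.8, 54.3 and 62.3 TPM in DMSO and 53.4, 52.6 and 48.8 TPM in CBR-470-1. All treated libraries lay below all controls, by a margin of under 1 TPM at the closest pair. The log2 fold change was -0.14 with a 95% interval of -0.30 to 0.02 (limma adjusted p = 0.268). It was -0.08 without DMSO replicate 3, the highest library, and -0.07 with a correction for GC content and length. In GENCODE 29, 4.25% of the exonic bases of HAGH overlap FAHD1 on the other strand, and the library kit named in the labels does not mark strand, so reads of that stretch cannot be assigned to one gene or the other.

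GLOD4, which carries glyoxalase domains but whose reaction is not settled, had 146, 143 and 136 TPM in DMSO and 145, 149 and 141 TPM in CBR-470-1. These ranges overlapped, and the 95% interval of the log2 fold change was -0.07 to 0.14 (limma adjusted p = 0.658). Its opposite-strand overlap, with MRM3, covers 12.9% of its exonic bases.

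Ratios taken inside each library do not depend on how the libraries were scaled. Each of the 4 pairs computed holds GLO1, ADH5 or C21orf33, whose own values did not overlap between the groups. The ratios are therefore not separate evidence, and the share of other gene pairs without overlap was not computed. GLO1 over HAGH was 3.69, 3.55 and 3.04 in DMSO and 4.03, 4.31 and 4.61 in CBR-470-1. GLO1 over GLOD4 was 1.38, 1.35 and 1.39 in DMSO and 1.48, 1.52 and 1.60 in CBR-470-1. Both ratios were higher in all 3 treated libraries than in any control. Each gave p = 0.1 in an exact two-sided permutation test, the smallest value that 3 against 3 allows, and 0.1 after Benjamini-Hochberg adjustment over the 4 ratios computed, so the design cannot pass a threshold of 0.05 here.

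**Figure D2:**
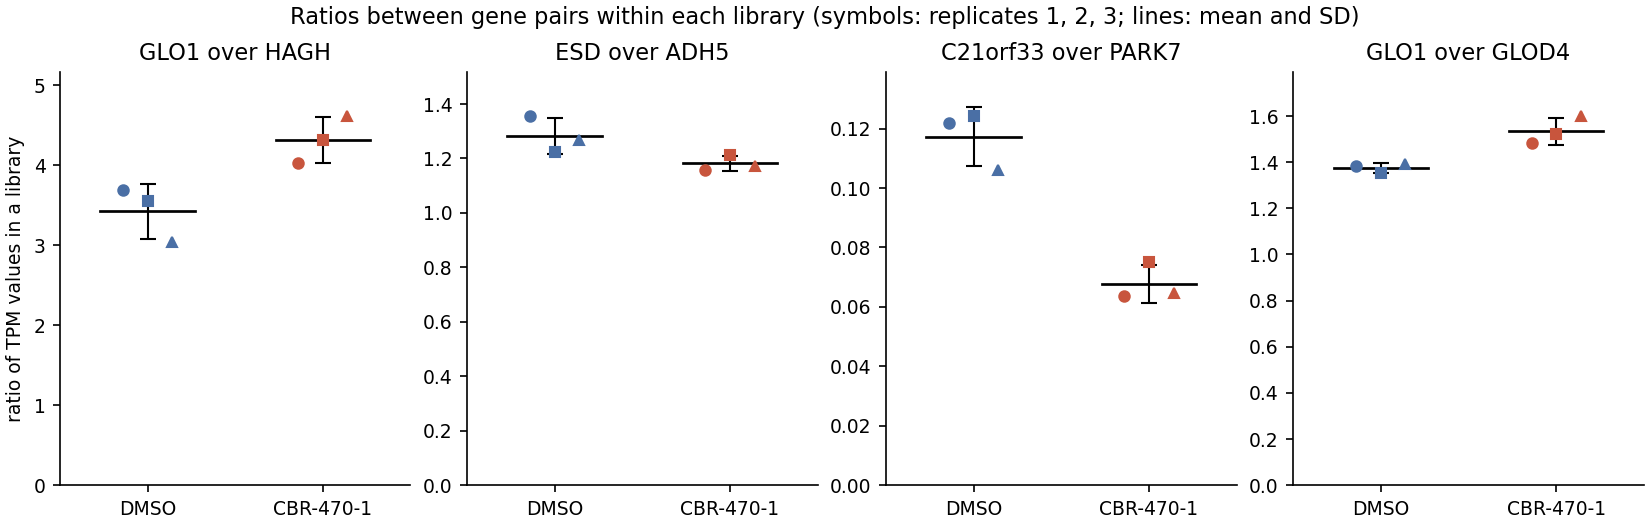
Ratio of TPM values of 4 gene pairs within each library, on linear axes from 0; points are libraries, blue for DMSO and red for CBR-470-1, and lines give the mean and SD. In each panel the 3 CBR-470-1 points do not overlap the 3 DMSO points, with C21orf33 over PARK7 at 0.106 to 0.124 in DMSO and 0.0636 to 0.0752 in CBR-470-1. Each pair holds GLO1, ADH5 or C21orf33, whose own values did not overlap either.

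Of the DJ-1-like genes, C21orf33 was called and PARK7 was not. PARK7, which encodes DJ-1, a protein that guards cells against oxidative stress and for which a methylglyoxal-clearing activity has been described and debated, was the most abundant of the 10 transcripts. It had 246, 242 and 239 TPM in DMSO and 241, 234 and 234 TPM in CBR-470-1. The groups overlapped, and the 95% interval of the log2 fold change, -0.12 to 0.04, was the narrowest of the 10 (limma adjusted p = 0.536).

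C21orf33, now named GATD3, encodes a mitochondrial protein of the DJ-1-like family and was the least abundant of the 10. It had 30.05, 30.04 and 25.3 TPM in DMSO and 15.3, 17.6 and 15.1 TPM in CBR-470-1. The lowest control was thus well above the highest treated library. The mean fell from 28.5 ± 2.72 to 16.0 ± 1.36 TPM (SD, n = 3 each), a ratio of 0.562, with a log2 fold change of -0.79 (SE 0.0916, 95% interval -1.01 to -0.58, limma adjusted p = 0.0138). Of all tested genes, 0.824% had an absolute log2 fold change at least as large. The ratio of C21orf33 to PARK7 within a library went from 0.117 ± 0.00994 to 0.0678 ± 0.00642 without overlap (exact two-sided permutation test p = 0.1, adjusted 0.1 over the 4 ratios). The call was lost without DMSO replicate 2 (log2 fold change -0.75, limma adjusted p = 0.0643), without CBR-470-1 replicate 1 (-0.76, 0.0582) and without CBR-470-1 replicate 3 (-0.76, 0.0786), each with fewer libraries. It was kept without each of the other 3 libraries and with the GC and length correction (-0.73, limma adjusted p = 0.0241).

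The value of C21orf33 is uncertain in one respect, since the GRCh38 assembly holds a copy of the gene that is near-identical over part of its transcripts. GENCODE 29 places the gene (as GATD3A, ENSG00000160221.17) on chromosome 21 at 44133605 to 44210114, plus strand, and the copy GATD3B (ENSG00000280071.3) on the same chromosome at 5079294 to 5128425, minus strand. Of the 15 annotated GATD3A transcripts, 8 shared at least 90% of their stretches of 31 bases with GATD3B transcripts, and 2 shared all of them. The longest transcript shared 12.7%, and over the whole gene 33.5% of the GATD3A stretches occur in GATD3B. The table analysed here has a row for C21orf33 and 0 rows under the 4 names GATD3A, GATD3B, GATD3 and LOC102724023, so the copy was not analysed here and its sum with C21orf33 could not be formed. Further, 8.14% of the exonic bases of GATD3A lie under genes of the other strand.

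Other genes with a copy on chromosome 21, chosen after the values of C21orf33 were seen, did have both rows. These genes share more with their copies than GATD3A does. Of their stretches of 31 bases, 93.2% (SMIM11A), 96.3% (U2AF1) and 55.9% (CBS) occur in the copy, against 33.5% for GATD3A. SMIM11A had 8.55, 2.31 and 32.6 TPM in DMSO and 6.52, 1.19 and 2.45 TPM in CBR-470-1, while its copy SMIM11B had 30.9, 41.1 and 5.59 TPM and then 30.8, 35.7 and 35.6 TPM. Their sum varied far less, from 38.2 to 43.5 TPM in DMSO and from 36.9 to 38.0 TPM in CBR-470-1. CBS, cystathionine beta-synthase, held 130 ± 3.86 and 123 ± 12.8 TPM, and its copy CBSL 93.3 ± 7.08 and 73.9 ± 3.40 TPM, in DMSO and CBR-470-1. The sum of CBS and CBSL was 224 ± 8.56 and 197 ± 9.45 TPM, lower without overlap and not tested. U2AF1L5 held 427 ± 2.19 and 437 ± 3.44 TPM against 9.79 ± 1.17 and 13.1 ± 4.27 TPM for U2AF1, a splicing factor gene. The sum of U2AF1 and U2AF1L5 was 437 ± 1.54 and 451 ± 5.26 TPM, higher without overlap and not tested. Single rows of such pairs thus divided a sum unequally, and in the SMIM11 pair the division changed from library to library within a group. Whether a shift between copies has a part in the fall of C21orf33 was not tested. PWP2 and TRAPPC10, which lie near C21orf33 and were also chosen afterwards, had log2 fold changes of 0.10 and 0.02 (limma adjusted p = 0.604 and 0.897).

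**Figure D3:**
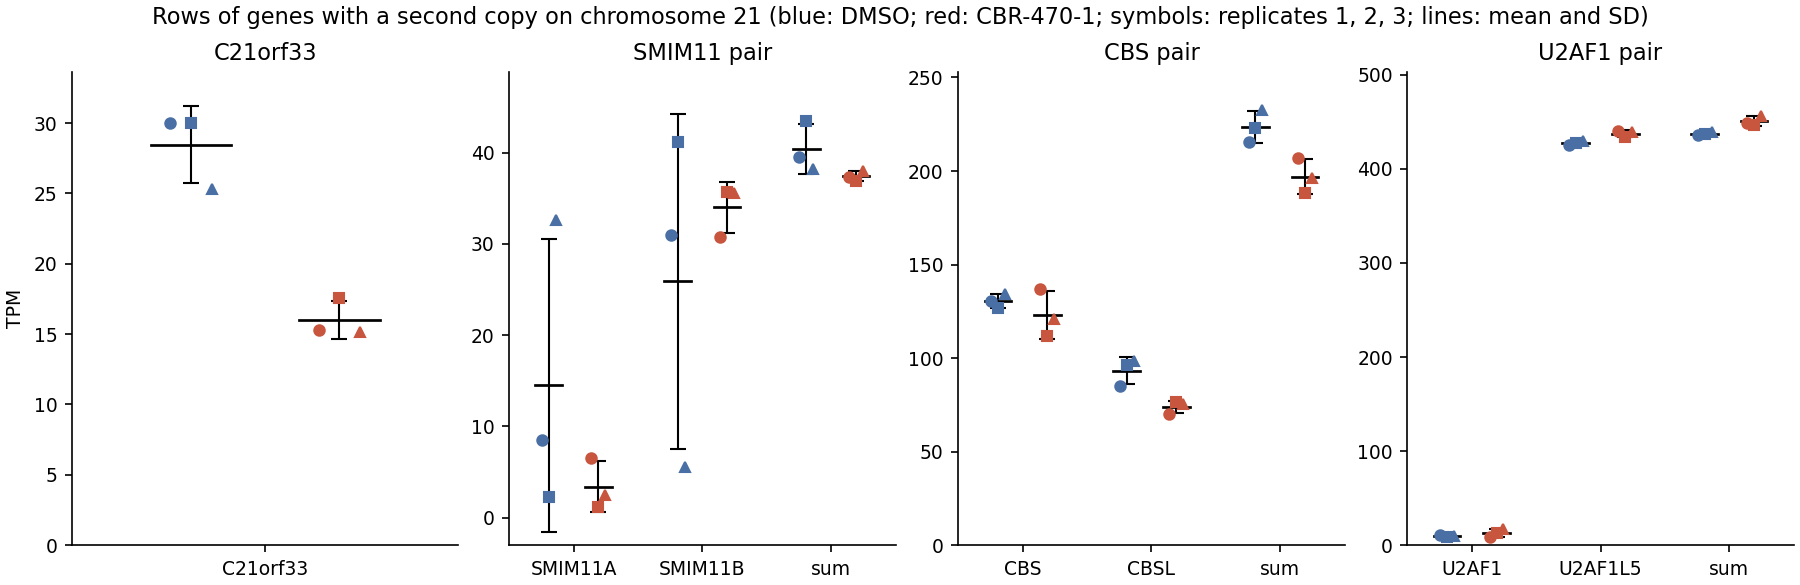
TPM in each library for C21orf33 and for 3 gene pairs with near-identical copies on chromosome 21, with the sum of each pair; blue is DMSO, red is CBR-470-1, symbols are replicates and lines give the mean and SD (the SD line of SMIM11A passes below 0). SMIM11A ranges from 2.31 to 32.6 TPM within DMSO while the sum of the pair stays between 38.2 and 43.5 TPM.

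For the formaldehyde route, ADH5 stood slightly higher and ESD overlapped. ADH5, which oxidises the glutathione adduct of formaldehyde, had 119, 118 and 117 TPM in DMSO and 129, 129.6 and 130.2 TPM in CBR-470-1. The replicates lay within a few TPM of each other and the groups were apart, with a ratio of means of 1.10. Only 0.156% of tested genes had a smaller residual SD. The limma fit moderates each gene's spread towards that of genes at a like level. With it the SE of the log2 fold change of 0.14 was 0.0364, and ADH5 did not pass (95% interval 0.05 to 0.22, limma adjusted p = 0.0899). A fit without moderation was not run. The log2 fold change was 0.08 with the GC and length correction (limma adjusted p = 0.225). Of the stretches of 31 bases in ADH5 transcripts, 14.1% also occur in transcripts of other genes, most of them in the pseudogene ADH5P4, so a part of its reads may be shared.

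ESD, the hydrolase that frees formate from formylglutathione, had 161, 145 and 148 TPM in DMSO and 149.5, 157 and 153 TPM in CBR-470-1. The ranges overlapped, with a log2 fold change of 0.02 (95% interval -0.10 to 0.14, limma adjusted p = 0.839). ESD over ADH5 within a library was 1.35, 1.23 and 1.27 in DMSO and 1.16, 1.21 and 1.17 in CBR-470-1. The ratio was lower in every treated library than in any control (mean log2 difference -0.12, exact two-sided permutation test p = 0.1, adjusted 0.1 over the 4 ratios). The difference was -0.08 without DMSO replicate 1, the library with the highest ratio.

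None of the aldehyde dehydrogenases was called. ALDH2, the mitochondrial enzyme best known for acetaldehyde, had 58.4, 60.5 and 59.9 TPM in DMSO and 67.5, 60.9 and 62.6 TPM in CBR-470-1. The groups were just apart, and the 95% interval of the log2 fold change was -0.03 to 0.22 (limma adjusted p = 0.345). Its log2 fold change was 0.09, against 0.05 each without CBR-470-1 replicate 1, with the GC and length correction and with median centring. Of its stretches of 31 bases, 18.4% also occur in other genes, most often in AC002996.1.

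ALDH3A2, the membrane enzyme for fatty aldehydes, had 57.4, 60.05 and 56.7 TPM in DMSO and 66.7, 61.0 and 50.9 TPM in CBR-470-1. Its treated libraries enclosed the controls, and its 95% interval was the widest of the 9 uncalled genes (log2 fold change 0.03, interval -0.19 to 0.25, limma adjusted p = 0.883). ALDH9A1, which oxidises an aldehyde on the way to carnitine, had 47.9, 49.0 and 44.8 TPM in DMSO and 48.1, 50.04 and 45.3 TPM in CBR-470-1. The groups overlapped almost fully (log2 fold change 0.02, 95% interval -0.12 to 0.16, limma adjusted p = 0.893).

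**Figure D4:**
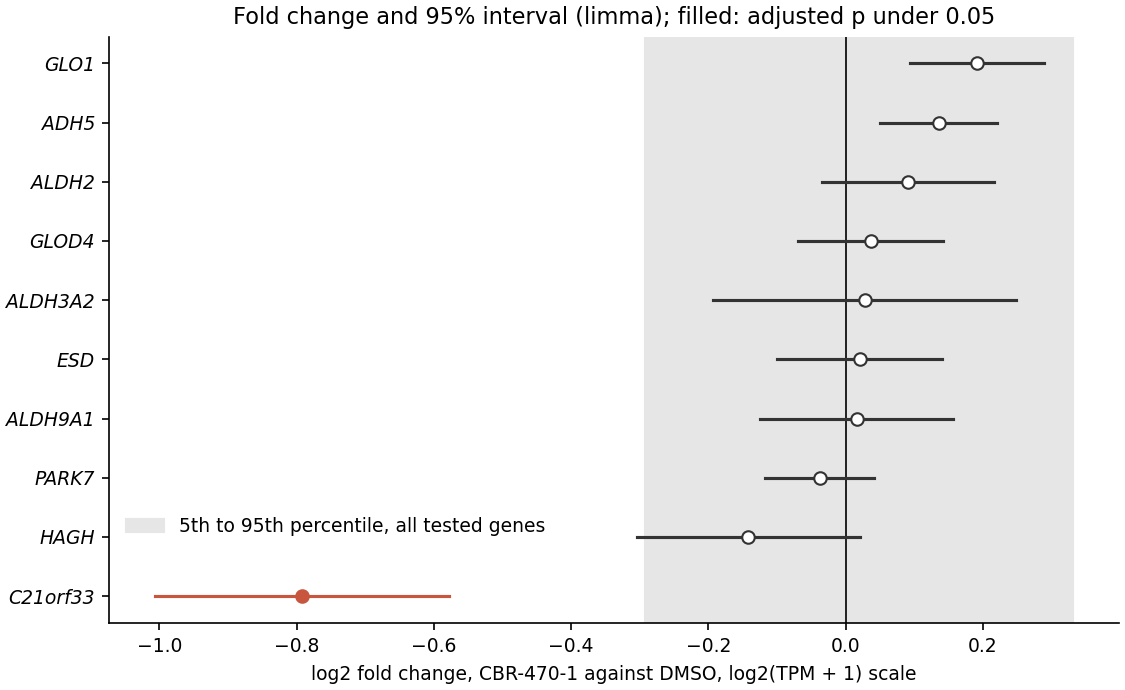
Log2 fold change of CBR-470-1 against DMSO on the log2(TPM + 1) scale with its 95% interval from limma, for the 10 genes; the grey band spans the 5th to 95th percentile of all tested genes, from -0.29 to 0.33. C21orf33 at -0.79 is outside the band and the only filled (called) point, and the points of the other 9 are inside it.

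A wider list of 63 genes was then read, made of these 10 and of related enzymes by role, with the older symbol PDDC1 for GATD1. Of the 63, 45 were abundant enough to test, and 1 rose and 1 fell, GCLM and C21orf33, with 43 not called, where 1.97% of all tested genes were called. The median log2 fold change was -0.04, beside 0.03 for all tested genes. In 18 of the 45 the ranges of both groups stayed apart, 8 higher and 10 lower, against 30.2% of all tested genes (17.7% higher and 12.5% lower). The list was chosen with earlier results known, so its counts are a description.

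Glutathione supply was the role with the largest median log2 fold change, 0.28 over 4 genes, of which 1 was called. GCLM, which encodes the regulatory partner in the first step of glutathione synthesis, had 28.1, 22.8 and 24.9 TPM in DMSO and 44.4, 44.4 and 42.0 TPM in CBR-470-1, a rise of 0.77 on the log2 scale (SE 0.0797, limma adjusted p = 0.0105). Its catalytic partner GCLC had 87.0, 75.2 and 73.1 TPM and then 94.9, 99.2 and 96.6 TPM (log2 fold change 0.31, limma adjusted p = 0.0692). In both genes every treated library was above every control. The role also holds GSR and GSS. GSR was higher without overlap too, by 0.25 on the log2 scale, but was not called (limma adjusted p = 0.0592). GSS differed by 0.05 with overlapping ranges (limma adjusted p = 0.709). The groups thus stayed apart in 3 of the 4 genes, all higher, against 30.2% of all tested genes (17.7% higher and 12.5% lower). With CBR-470-1 replicate 1, 2 or 3 left out, GCLM kept log2 fold changes of 0.75, 0.76 and 0.79 but missed the threshold with fewer libraries (limma adjusted p = 0.0582, 0.0657 and 0.0564). GCLC passed without DMSO replicate 1 (limma adjusted p = 0.0487) and among genes of at least 5 TPM (0.0496).

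Of 7 listed carbonyl-reducing enzymes, which turn methylglyoxal or other carbonyls into alcohols, 6 were tested, 0 were called and the median log2 fold change was -0.18. The groups did not overlap in 5 of the 6, 1 higher and 4 lower, against 30.2% of all tested genes (17.7% higher and 12.5% lower). AKR7A2, an aldo-keto reductase, had 16.3, 16.6 and 16.2 TPM in DMSO and 15.2, 12.4 and 10.7 TPM in CBR-470-1. It was lower in every treated library but spread widely among them (log2 fold change -0.35, limma adjusted p = 0.133). AKR1B1, CBR4 and DCXR were also lower in every treated library (log2 fold changes -0.07, -0.15 and -0.21, limma adjusted p = 0.315, 0.256 and 0.136). AKR1A1 was lower in mean with overlap (log2 fold change -0.30, limma adjusted p = 0.154). CBR1, carbonyl reductase, was higher in every treated library (log2 fold change 0.17, limma adjusted p = 0.0972). The list does not hold the AKR1C genes, aldo-keto reductases known mainly for steroids, which are named after their values were seen. AKR1C3 rose from 0.351 ± 0.138 to 6.89 ± 1.17 TPM (log2 fold change 2.54, limma adjusted p = 0.00118). AKR1C1 and AKR1C2 were also higher without overlap but not called (log2 fold changes 0.66 and 0.90, limma adjusted p = 0.0667 and 0.0847). These genes are close paralogs, so reads may be shared among their rows.

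Of the 19 aldehyde dehydrogenase genes, 12 were tested and 0 were called, with a median log2 fold change of -0.08. ALDH16A1, a member of that family, had 12.1, 16.5 and 16.6 TPM in DMSO and 11.6, 11.6 and 11.7 TPM in CBR-470-1, so that its first control was close to the treated libraries (log2 fold change -0.33, limma adjusted p = 0.158). The family summed to 516 to 523 TPM in DMSO and 503 to 524 TPM in CBR-470-1. ALDH2, ALDH3A2 and ALDH9A1 together held 31.1% to 32.9% of that sum in DMSO and 31.5% to 34.8% in CBR-470-1. All 6 further alcohol dehydrogenase genes were under 1 TPM, so ADH5 was the member of that family present at a testable level.

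Of 10 tested genes with a glyoxalase fold or in lactoylglutathione hydrolysis, GLO1, GLOD4 and HAGH included, 0 were called. The largest log2 fold change among them was 0.32 in LACTB2, a metallo-beta-lactamase family gene with 11.7, 14.2 and 7.80 TPM in the controls and 13.1, 16.1 and 12.6 TPM in the treated libraries. Its ranges overlapped (limma adjusted p = 0.371). In 4 of the 10 the groups did not overlap, 1 higher and 3 lower, against 30.2% of all tested genes (17.7% higher and 12.5% lower). GLO1 was the higher one, and HAGH, PNKD and HPDL were lower. PNKD and HPDL had log2 fold changes of -0.22 and -0.19 (limma adjusted p = 0.0883 and 0.120). PDDC1, the further DJ-1-like gene, had means of 42.7 and 38.9 TPM (log2 fold change -0.14, limma adjusted p = 0.558). D-lactate dehydrogenase, LDHD, which would use the product of HAGH, was under 1 TPM. At the source of methylglyoxal, 0 of 5 genes were called. ALDOA, an aldolase that yields triose phosphates, had 1130.3, 1169.6 and 1203.9 TPM in the controls and 1309.8, 1242 and 1302.7 TPM in the treated libraries, which were all higher (log2 fold change 0.14, limma adjusted p = 0.0846). It passed after the GC and length correction (0.18, limma adjusted p = 0.0250) and after quantile normalization (0.16, 0.0496). GAPDH, which uses glyceraldehyde phosphate, was lower without overlap (3516 ± 95.8 and 3343 ± 20.8 TPM, log2 fold change -0.07, limma adjusted p = 0.155). TPI1, triose phosphate isomerase, had 861 ± 54.5 and 847 ± 30.6 TPM, and PGK1 had 629 ± 10.95 and 614 ± 16.1 TPM, in DMSO first (limma adjusted p = 0.824 and 0.549). The log2 fold change of PGK1 had a 95% interval of -0.11 to 0.04.

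**Figure D5:**
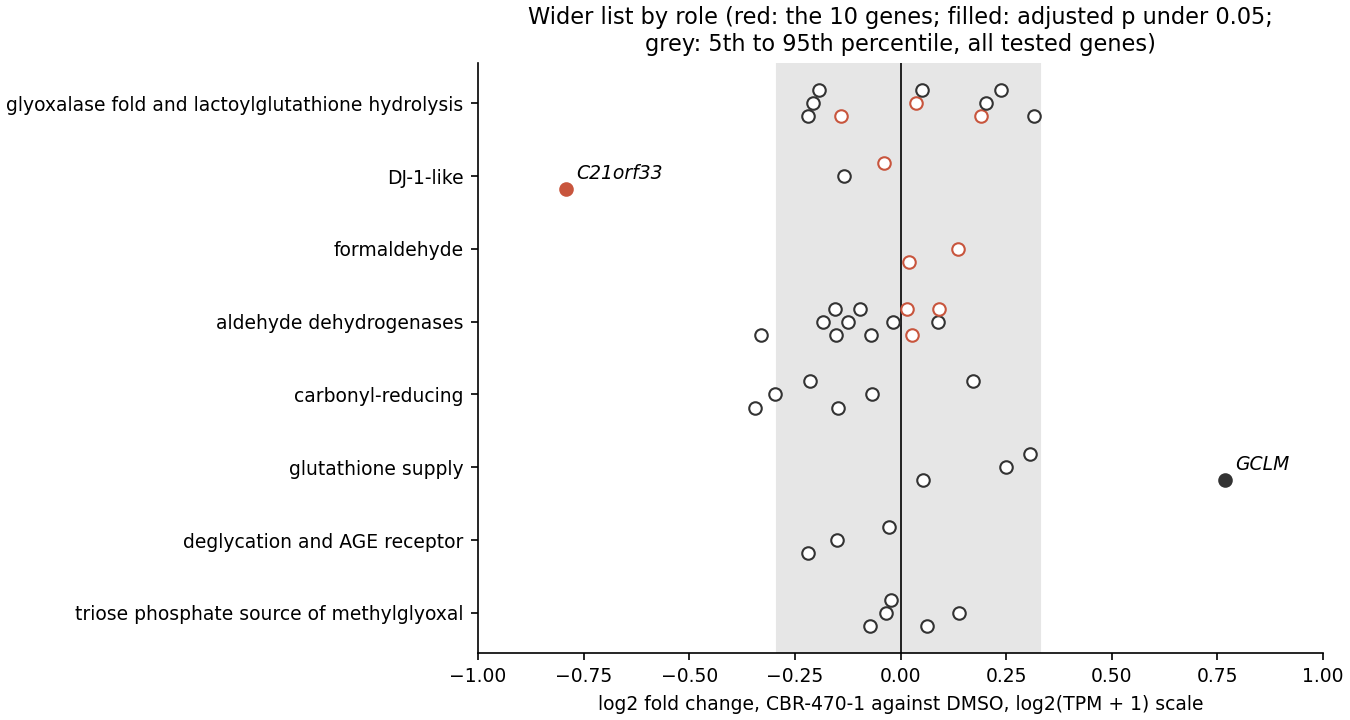
Log2 fold change of the 45 tested genes of the wider list, by role, on the log2(TPM + 1) scale; red marks the 10 genes, filled points were called, vertical offsets only separate points, and the grey band spans the 5th to 95th percentile of all tested genes. GCLM at 0.77 and C21orf33 at -0.79 are the filled points.

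The rows whose profile over the 6 libraries was closest to that of GLO1, by Euclidean distance of log2(TPM + 1) values centred on each gene's mean among 10475 rows of at least 5 TPM, were SFR1, EYA4 and RAB22A, at distances of 0.0224, 0.0320 and 0.0352. Those closest to C21orf33 were LYPD1, FBXO4 and GLDC, at distances of 0.268, 0.386 and 0.391. LYPD1 went from 6.70 ± 0.0220 to 3.36 ± 0.476 TPM and GLDC from 6.56 ± 0.698 to 3.68 ± 0.493 TPM. These rows were picked for their likeness over 6 libraries, so no test is given.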

How the data were processed

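Per the labels' protocols, libraries came from polyA-selected RNA with an NEBNext Ultra kit. The deposited file gives TPM for each gene symbol in every library, as the authors computed it. Per the submitters' processing notes, bcl2fastq and Salmon 0.7.2 were used with GRCh38; the transcript annotation is not given in the sources used here. TPM keeps no depth, so counting error is unknown and precision rests on 3 replicates per group. Depth per library cannot be given.

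Libraries were grouped by title. Values were tested as log2(TPM + 1) in rows whose mean reached 1 TPM, with limma 3.58.1 in R 4.3.3 (group only, variance trend, Benjamini-Hochberg over all 13470 rows). Fold changes are on that scale and understate changes of low genes; means and SDs are of linear TPM. Ratios used an exact permutation test in scipy 1.17.1. Coordinates and 31-base stretches came from GENCODE 29, where C21orf33 was matched through a synonym. Named were the 10 genes, called genes of the wider list and its 4 largest uncalled changes, PGK1, TPI1, 3 NRF2 targets and 3 nearest profiles each for GLO1 and C21orf33; other genes were named after their values were seen. The members and lists were chosen with earlier results of these data known. Alternatives were pseudocounts of 0.1 and 5 TPM, filters, median centring, quantile normalization, rescaling without mitochondrial and ribosomal protein genes, a GC and length spline correction (5 degrees of freedom), other variance models, the replicate block, single libraries left out and an adjusted p under 0.01.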

Additional observations from a re-analysis of the deposited data

How the results depend on the processing

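Over all genes, 265 calls became 22 at an adjusted p under 0.01, 82 with no filter, 428 at a mean of at least 5 TPM, 83 with no variance trend and 18 to 82 when a library was left out. The share of calls that were higher was 57.4% as reported, 34.3% with median centring and 49.4% with quantile normalization. Of the 10 genes, 1 call became 0 at an adjusted p under 0.01, 2 at a mean of at least 5 TPM (GLO1 added) and 0 to 1 when a library was left out. Of the wider list, 2 calls became 0 at an adjusted p under 0.01, 5 at a mean of at least 5 TPM (GLO1, GCLC and GSR added), 5 with the GC and length correction (ALDOA, CBR1 and GSR added), 3 with quantile normalization (ALDOA added) and 0 to 3 when a library was left out. The replicate block gave 17 calls over all genes and 1 in the wider list, C21orf33 (adjusted p = 0.0479), with GCLM at 0.0532 and both fold changes as reported, on fewer residual degrees of freedom. Nothing in the labels says what a shared number marks. Deviations of same-numbered libraries correlated at -0.138, -0.00591 and -0.0318, and those of unlike-numbered libraries at -0.0941 to 0.136. No pairing by number was evident, but with 3 libraries per group these correlations cannot settle whether there was one. The cause of these changes was not tested. Small fold changes turned sign: GLOD4 to -0.000884 and ESD to -0.0170, ALDH3A2 to -0.00962 and ALDH9A1 to -0.0212 with median centring; GLOD4 to -0.00773 and ESD to -0.0301 with the GC and length correction; and ALDH9A1 to -0.00213 with quantile normalization. Leaving out a library moved ESD between -0.00984 and 0.0667, ALDH3A2 between -0.0572 and 0.134, and ALDH9A1 between -0.0206 and 0.0544. C21orf33, GLO1, ADH5, ALDH2, HAGH and PARK7 kept their direction in every alternative run. The 4 ratios kept theirs in the 7 alternatives run for them, 1 TPM added to both values and single libraries left out. The ratios were not run with the GC and length correction. The sum of C21orf33 with its copy was not run, since no row of the copy was available. Precision is limited by 3 libraries per group.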
